A study of Mus musculus with 5 samples.

Results

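The nuclear-encoded subunits of the mitochondrial respiratory chain were described in CD8+ T cells recovered from mouse melanomas after antibody blockade of PD-L1 or a control antibody. Members were taken by gene symbol, as the names of the Nduf (complex I), Sdh (complex II), Uqcr and Cyc1 (complex III), Cycs (cytochrome c), Cox4 to Cox8 (complex IV) and Atp5 (complex V) genes, with at least 10 counts summed over the 5 libraries. This gave 81 of the 23337 listed genes, of which 35 belonged to complex I, 4 to complex II, 9 to complex III, 1 was cytochrome c, 15 belonged to complex IV and 17 to complex V. A further 6 matching symbols were listed at 0 counts in all 5 libraries and were left out: Ndufs5, Ndufa4l2, Cox4i2, Cox7b2, Cox8b and Cox8c. How reads with more than 1 place in the genome were counted is not known here, so a 0 for a broadly expressed subunit such as Ndufs5 is not taken as absence of the transcript. The subunits that mitochondrial DNA encodes were not analysed here.

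The cells came from C57BL/6J CD45.1 OT-I donors aged 6 to 12 weeks, a strain whose T cells carry 1 transgenic receptor for a peptide of ovalbumin. They were activated in culture with anti-CD3 and anti-CD28, grown in IL-2, and injected into mice with B16-OVA tumors, a mouse melanoma engineered to express ovalbumin. All recipients received 200 µg of antibody on days 3 and 6 after transfer, either clone 10F.9G2 against PD-L1 (anti-PD-L1, 2 libraries) or an anti-KLH rat IgG2b (Control IgG, 3 libraries). Cells were recovered on day 8, or earlier where a tumor reached 1.2 cm, and live donor cells were sorted by CD8 and CD45.1. Both groups therefore hold cultured, transferred cells of a single receptor specificity, and no library of untreated or endogenous T cells enters the comparison. Each library pooled several mice of its group, and the spread that the p-values measure is the one between pools. In such bulk samples, fewer cells of a type and less RNA per cell cannot be told apart.

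The respiratory chain passes electrons from NADH (complex I) and succinate (complex II) through ubiquinone, complex III, cytochrome c and complex IV to oxygen. Complexes I, III and IV pump protons across the inner mitochondrial membrane, and complex V, the ATP synthase, lets them back to make ATP. Activated CD8+ T cells rely heavily on glycolysis while keeping the chain active, and the chain's capacity is known to matter for the persistence of T cells in tumors, where PD-1 signals act on it. Factors long linked to the transcription of these genes are NRF1, the ETS factor GABP and YY1.

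Counts assigned to genes ran from 9985943 to 12830485 per library. Summed markers of CD8+ T cells (7 of 7 genes detected) ran from 6949 to 7527 CPM (read counts divided by the library's total and put on a common scale) in Control IgG and stood at 8482 and 7608 CPM in anti-PD-L1. Melanoma markers (6 of 6 detected) summed to 3.95, 295 and 93.9 CPM in Control IgG replicates 1, 2 and 3 and to 39.5 and 102 CPM in anti-PD-L1 replicates 1 and 2. Macrophage and monocyte markers (7 of 7 detected) ran from 70.5 to 162 CPM. Dendritic cell, natural killer cell, CD4 T cell, B cell, neutrophil, fibroblast and erythroid lists each stayed at or below 18.5 CPM, with S100a9, Col3a1, Dcn and Hba-a1 at 0 in all 5 libraries. The endothelial list summed to 28.5 to 57.6 CPM, with Cdh5 at 0. The libraries numbered 1 in each group stood apart, with fewer genes detected (11696 and 11977, against 13564 to 13801), and results are given with and without them where they move. The part of these differences in the results below was not tested.

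The promoters of the members are shown first, because letters of factors linked to the chain occur in all 5 complexes. RefSeq windows from 250 bases before to 50 bases after the transcription start (assembly GRCm38.p6) were found for 67 of the 81 members, 3 of them by a later symbol, and were read on both strands. The NRF1 letters GCATGCGC occurred in 11 of the 67 members (16.4%) against 3.05% of 27025 genes, Cycs among them. The ETS letters CCGGAAG, the kind that GABP binds, occurred in 16 members (23.9%) against 9.93% of genes. The YY1 letters AAGATGGC also occurred in 11 members (16.4%), against 3.19% of genes, and the cyclic AMP response element TGACGTCA in 5 members (7.46%) against 2.03%. These shares describe letters, not bound sites, and no test was made of them. The median G+C content of the members' windows was 57.7%, against 52.7% over all windows. Matches were placed differently around the start: 9 of the 12 YY1 matches began at or after it, against 6 of 19 ETS matches and 1 of 11 NRF1 matches. Of the YY1 matches, 2 are the same site of Atp5sl, counted from different starts at positions -53 and 26. No matches of 2 different motifs overlapped, and the NRF1 motif met on both strands at 1 place was counted once. All 11 genes with YY1 letters belonged to complex I (7 genes: Ndufa3, Ndufa9, Ndufb8, Ndufc1, Ndufs4, Ndufs6 and Ndufs7) or complex V (4 genes: Atp5f1, Atp5j, Atp5j2 and Atp5sl), which also held most windows, 31 and 16. One stretch per complex is printed, 5′ to 3′ along the gene's strand, with the motif in capitals (CTTCCGG is the ETS motif on the other strand, and GCGCATGCGC holds the NRF1 letters on both strands). Each lies before the RefSeq start and outside every GENCODE vM21 exon.
Ndufa11 (complex I, chr17:56717686-56717751, plus strand, NRF1 letters): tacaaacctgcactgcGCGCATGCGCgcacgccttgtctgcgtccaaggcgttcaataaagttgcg
Sdhd (complex II, chr9:50603850-50603909, minus strand, ETS letters): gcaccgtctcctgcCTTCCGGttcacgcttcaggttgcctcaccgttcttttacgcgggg
Uqcr11 (complex III, chr10:80406841-80406927, minus strand, ETS letters): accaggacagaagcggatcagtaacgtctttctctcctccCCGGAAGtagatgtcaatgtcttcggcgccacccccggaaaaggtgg
Cox6a1 (complex IV, chr5:115349071-115349129, minus strand, NRF1 letters): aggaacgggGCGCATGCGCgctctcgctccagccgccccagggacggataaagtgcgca
Atp5e (complex V, chr2:174464157-174464243, minus strand, ETS letters): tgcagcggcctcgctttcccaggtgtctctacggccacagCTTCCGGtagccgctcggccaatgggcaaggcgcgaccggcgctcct
In these stretches the motif begins 60 bases before the start of Ndufa11, 46 before Sdhd, 66 before Uqcr11, 162 before Cox6a1 and 102 before Atp5e.

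Transcript levels of the chain differed little between the treatments, and no member passed the test. Of the 81 members, 79 passed the filter on low counts; Cox6a2 and Cox7a1 did not. By edgeR's quasi-likelihood test, 0 of the 79 had an adjusted p under 0.05, against 0% of all 11299 genes tested, and the adjusted p was 0.9999 or higher for each. At an unadjusted p under 0.05 the count was also 0, against 2.13% of all genes, and the smallest p was 0.234 (Ndufv3). DESeq2 and limma-voom likewise called 0 members. The log2 fold change, anti-PD-L1 relative to Control IgG, lay above 0 for 37 members and below 0 for 42, with a median of -0.013 against -0.015 over all genes tested. Fold changes ran from -0.37 (Ndufa4) to 0.34 (Ndufb7), so none exceeded 0.5 in size, where 23.9% of all genes did. That share was also low for cytosolic (1.27%) and mitochondrial (5.26%) ribosomal proteins, and was 12.8% for assembly factors and 23.1% for ubiquinone synthesis. The median standard error was 0.28 for members and 0.38 for all genes, and this test leaves such small differences unresolved. On simulated counts the test called only 19.4% of 2-fold changes, so for such genes a lack of calls says little about changes up to that size. The changed genes were drawn from all tested genes except those of low counts. The call rate for genes with the members' counts and standard errors was not simulated. The members' median turned positive at 0.22 without Control IgG replicate 1 and at 0.19 without anti-PD-L1 replicate 2, and stood at -0.18 without anti-PD-L1 replicate 1.

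**Figure D1:**
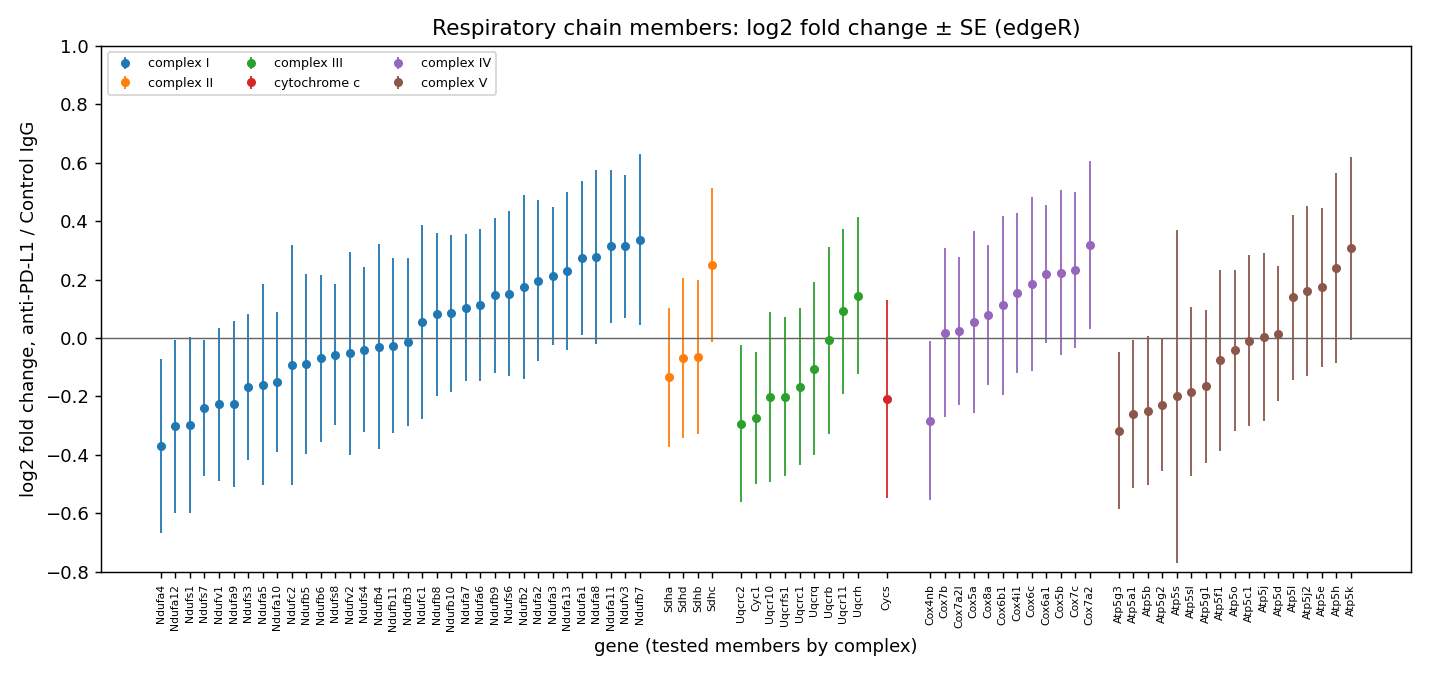
Log2 fold change (anti-PD-L1 relative to Control IgG, vertical axis) for tested members grouped by complex, as points with standard errors from edgeR; Cox6b2, with a standard error of 1.55, and 1 member not reported here are left out of the plot. Complex IV points lie mostly above 0 (11 of 13 tested) and complex III points mostly below (7 of 9), and many error bars cross 0.

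In CPM by library totals, the groups did not overlap for 17 of the 79 tested members. Both anti-PD-L1 values exceeded all 3 controls for 6 (7.59% of the 79, against 6.94% of all genes) and were under all 3 for 11 (13.9%, against 10.8%). The 6 were Cox6a1, Ndufa1, Ndufa11, Ndufa3, Ndufv3 and Sdhc. Those below included Atp5a1, Atp5b, Atp5g2, Atp5g3, Cox4nb, Cyc1, Ndufa10, Ndufs3, Ndufv1 and Uqcrc2. On this scale both shares were near those of all genes. With CPM scaled by TMM factors, a normalization that evens out library composition, 2 were above (Ndufa3 and Ndufv3) and 3 below (Atp5g2, Cox4nb and Cyc1). These are 2.53% and 3.80% of members, against 7.73% and 9.57% of all genes, so that on this scale both shares lay under those of all genes.

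Complex I, the NADH dehydrogenase and the largest assembly of the chain, showed fold changes on both sides of 0 (16 above, 19 below, median -0.027). The 7 nuclear-encoded core subunits, which carry the flavin, the iron-sulfur clusters and the path to ubiquinone, all had fold changes below 0 (median -0.17, range -0.30 to -0.053). The 27 accessory subunits, which surround the core, had 16 above 0 and a median of 0.085. The difference between core and accessory subunits was not tested, and 0 of either group passed. The core transcripts are 758 (Ndufs7) to 2661 (Ndufs1) bases long, and fold changes of members also went along with length, as given below. In all that follows, CPM values are listed for Control IgG replicates 1, 2 and 3 and then for anti-PD-L1 replicates 1 and 2.

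Ndufs1, the largest iron-sulfur subunit, stood at 139, 104 and 131 CPM in the controls and at 114 and 84.7 CPM after anti-PD-L1. The groups overlapped, since anti-PD-L1 replicate 1 lay above Control IgG replicate 2 (log2 fold change -0.30, SE 0.30). Ndufv1, the NADH-binding flavoprotein, gave 248, 205 and 207 CPM against 188 and 183 CPM. Here the groups did not overlap, and Control IgG replicate 1 stood above the other controls (log2 fold change -0.23, SE 0.26).

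Among accessory subunits, Ndufv3, a small subunit of the NADH-oxidising module (chr17:31520115-31531331, plus strand, GRCm38), gave 98.7, 89.8 and 110.2 CPM against 126 and 117 CPM. It was higher in both anti-PD-L1 libraries than in any control and had the smallest p of all members, at a log2 fold change of 0.31 (SE 0.24, unadjusted p = 0.234, adjusted p = 0.9999 by edgeR). Ndufa4, named for complex I and now held to be a subunit of complex IV, gave 196, 145 and 134 CPM against 109 and 135 CPM. Its fold change of -0.37 (SE 0.30) was the lowest of the tested members, but anti-PD-L1 replicate 2 lay within the control range. Low and high examples in complex I were Ndufc1, with a mean of 48.2 CPM in the controls, and Ndufa9, with 224 CPM.

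Complex II, the succinate dehydrogenase, also serves the tricarboxylic acid cycle and is made of 4 nuclear-encoded subunits only. Its catalytic subunits were Sdha, the flavoprotein, at 382, 350.4 and 436 CPM against 339.9 and 357 CPM, and Sdhb, the iron-sulfur subunit, at 386, 383 and 353 CPM against 394 and 303 CPM. The groups overlapped for both (log2 fold changes -0.13, SE 0.24, and -0.065, SE 0.26). The membrane anchors Sdhc and Sdhd differed from each other in placement. Sdhc gave 99.8, 84.0 and 80.0 CPM against 105 and 102 CPM, with both anti-PD-L1 values above all controls (log2 fold change 0.25, SE 0.26). Sdhd gave 250.4, 225 and 207 CPM against 236 and 189 CPM, with overlapping groups (-0.068, SE 0.27). The complex's median of -0.066 turned to 0.073 without Control IgG replicate 1 and to 0.20 without anti-PD-L1 replicate 2.

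Complex III, the cytochrome bc1 complex, had fold changes below 0 for 7 of its 9 members (median -0.17). Cyc1, cytochrome c1 (chr15:76343523-76346260, plus strand, GRCm38), stood at 286, 322 and 285 CPM in the controls and at 232 and 249.95 CPM after anti-PD-L1. Both anti-PD-L1 values were lower than all controls on either CPM scale, and the log2 fold change was -0.28 (SE 0.23, unadjusted p = 0.257). Uqcrc2, a core protein of the matrix side, gave 374, 329 and 303 CPM against 287 and 251 CPM, again without overlap by library totals (-0.29, SE 0.27). Its partner Uqcrc1, which had the highest CPM of the complex without regard to length, gave 576, 455 and 494 CPM against 463 and 430.4 CPM. These groups overlapped (-0.17, SE 0.27). Uqcrfs1, the Rieske iron-sulfur protein, gave 329, 286 and 255 CPM against 263 and 234 CPM, also overlapping (-0.20, SE 0.27). The 2 members with fold changes above 0 were the small subunits Uqcrh (0.14) and Uqcr11 (0.091).

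Cycs, the mobile electron carrier cytochrome c, gave 545, 379 and 330.2 CPM against 394 and 324 CPM. Control IgG replicate 1 was far above every other library, and the rest of the controls overlapped with anti-PD-L1 (log2 fold change -0.21, SE 0.34). Without that library the Cycs fold change was 0.14. With Cycs, the complex III genes had a median of -0.18, which became 0.10 without Control IgG replicate 1 and 0.014 without anti-PD-L1 replicate 2.

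Complex IV, cytochrome c oxidase, leaned the other way, with fold changes above 0 for 11 of 13 tested members (median 0.11). Cox4i1, the regulatory subunit with the highest level in the complex, gave 708, 624 and 615 CPM against 793 and 621 CPM. Only anti-PD-L1 replicate 1 exceeded the controls (log2 fold change 0.15, SE 0.27; -0.13 without that library). Cox5a gave 388, 332 and 281 CPM against 399 and 280.2 CPM, a wide spread in both groups (0.055, SE 0.31). Cox5b gave 257, 190.4 and 196 CPM against 252 and 244 CPM (0.22, SE 0.28). The groups overlapped for both, with Control IgG replicate 1 among the higher values. Cox7a2 had the smallest p of the complex, at 220.3, 189 and 181 CPM against 277 and 203 CPM (0.32, SE 0.29, unadjusted p = 0.2998 by edgeR). Anti-PD-L1 replicate 2 lay among the controls, and without anti-PD-L1 replicate 1 the fold change was -0.022. The complex's median was -0.081 without that same library, 0.31 without Control IgG replicate 1, and 0.36 without anti-PD-L1 replicate 2.

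Several complex IV subunits have tissue-specific copies, and the cells held the widely expressed form of each. Cox6a1 gave 260.0, 255 and 244 CPM against 296 and 281 CPM, with both anti-PD-L1 values above all controls (log2 fold change 0.22, SE 0.24). The muscle form Cox6a2 had 21 counts in Control IgG replicate 1 and 1 or 0 in the others, which per kilobase of transcript was at most 0.544% of the Cox6a pair. Cox7a1, the muscle and heart form, ran from 0.244 to 0.403 CPM in the controls and stood at 0.863 and 0.701 CPM after anti-PD-L1. Both of these values exceeded the controls, at counts too low for the filter. Per kilobase, Cox7a1 made up 0.117% to 0.315% of the Cox7a family, while Cox7a2 made up 47.2% to 60.4% and Cox7a2l, a factor for assembling supercomplexes, 39.3% to 52.6%. Cox7a2l itself gave 347, 343 and 275 CPM against 295 and 352 CPM (0.023, SE 0.25). The hypoxia- and lung-linked Cox4i2 and the relative Ndufa4l2 were listed at 0 counts throughout, at a floor of 3 counts worth 0.234 to 0.3004 CPM. Cox6b2, the testis form, had 7, 10 and 10 counts against 0 and 16.

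Cox4nb, which the name pattern places in complex IV, is today called Emc8, a part of a membrane-protein insertion complex of the endoplasmic reticulum. It gave 69.7, 60.8 and 56.8 CPM against 46.4 and 55.4 CPM, with both anti-PD-L1 values below all controls (log2 fold change -0.28, SE 0.27). Its gene (chr8:120653914-120668573, minus strand) overlaps the start of Cox4i1 (chr8:120668222-120674207, plus strand), and the library chemistry does not mark strand, so reads in the shared bases cannot be told apart. Atp5s and Atp5sl, today Dmac2l and Dmac2, are likewise not structural subunits. Leaving these and Cox7a2l out, 75 tested members had a median fold change of -0.0088, with 36 above 0 and 39 below.

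Complex V had fold changes above 0 for 7 of 17 members (median -0.042). The alpha and beta subunits of its catalytic head had the highest CPM of the chain, without regard to length. Atp5b, the catalytic beta subunit (chr10:128083273-128090391, plus strand, GRCm38), stood at 2897, 2493 and 2537 CPM in the controls and at 2206 and 2178 CPM after anti-PD-L1. Atp5a1, the alpha subunit, stood at 1473, 1331 and 1311 CPM against 1156 and 1096 CPM. For both, every anti-PD-L1 value was lower than every control, and the log2 fold changes were -0.25 (SE 0.26) and -0.26 (SE 0.25). On TMM-scaled CPM their groups overlapped.

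The proton-turning c ring is encoded by Atp5g1, Atp5g2 and Atp5g3, whose mature proteins are alike and whose targeting peptides differ. Atp5g3 gave 573, 571 and 427 CPM against 412 and 416 CPM. Atp5g2 gave 338, 388 and 344 CPM against 289 and 306 CPM. In both, the anti-PD-L1 values lay below all controls, and those of Atp5g3 were close to Control IgG replicate 3 (log2 fold changes -0.32, SE 0.27, and -0.23, SE 0.23). Atp5g1 gave 289, 243 and 229 CPM against 218 and 229.7 CPM, with groups that met at Control IgG replicate 3 (-0.17, SE 0.26). Per kilobase, Atp5g3 made up 44.4% ± 2.76 of the 3 in the controls (SD, n = 3) and 42.6% ± 0.762 after anti-PD-L1 (SD, n = 2). Atp5g1 has RefSeq transcripts of 596 and 4715 bases, and its share of 25.9% ± 2.20 in the controls was 4.26% ± 0.463 (SD, n = 3) if the longest transcripts were used. The mix of the c subunit genes thus differed between groups by less than the spread among controls on either length.

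The 7 stalk and membrane subunits of complex V had 5 fold changes above 0 (median 0.14), led in p by Atp5k, at 59.9, 43.5 and 45.4 CPM against 66.4 and 54.7 CPM (0.31, SE 0.31), and Atp5h, at 386, 249 and 288 CPM against 407 and 310.3 CPM (0.24, SE 0.33). In both, Control IgG replicate 1 lay with the anti-PD-L1 libraries and the groups overlapped. The whole complex had a median of 0.14 without Control IgG replicate 1 and 0.11 without anti-PD-L1 replicate 2, opposite in sign to the value over all libraries.

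**Figure D2:**
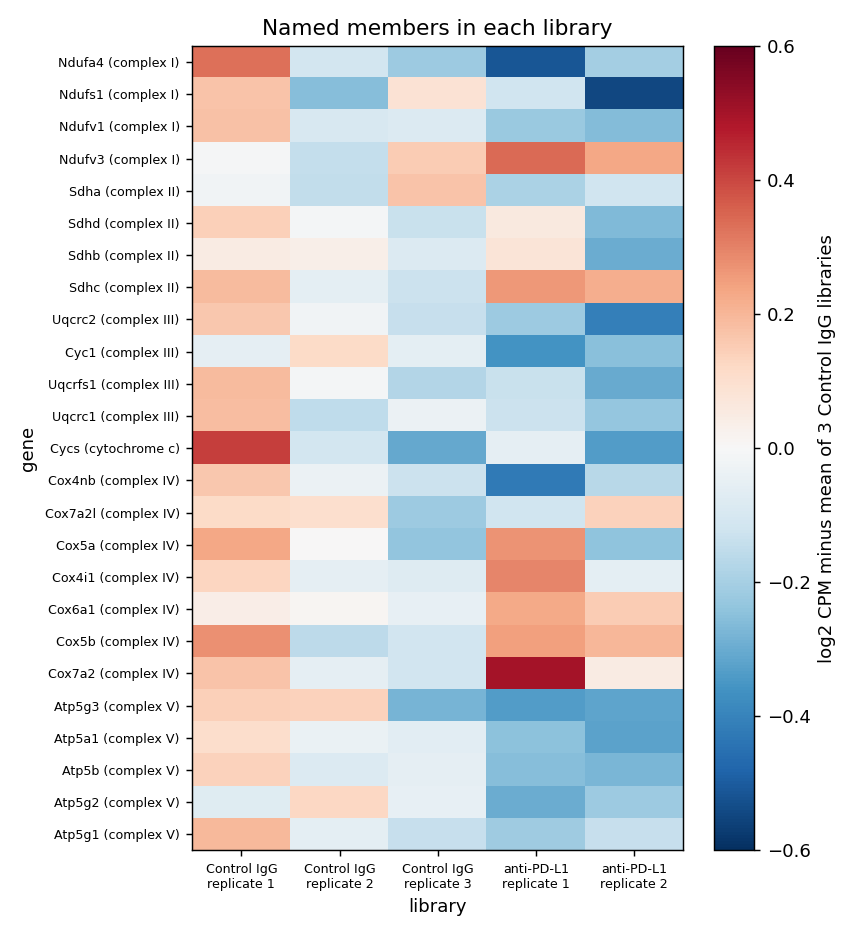
Named members in rows, by complex, and the 5 libraries in columns; colour gives log2 CPM (library totals) minus the mean of the 3 Control IgG libraries, red for higher and blue for lower. Control IgG replicate 1 is red for most genes, and Atp5a1, Atp5b, Atp5g2, Cyc1 and Uqcrc2 are blue in both anti-PD-L1 libraries.

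Levels between genes were compared per kilobase of transcript, as CPM divided by the length of the shortest RefSeq-paired transcript. Over the controls, Atp5b stood first at 1379 ± 116, followed by Cox4i1 at 871 ± 69.2, Atp5g3 at 734 ± 117 and Cox8a at 623 ± 13.4 CPM per kilobase (SD, n = 3). Atp5b was clear of its neighbour, whereas Atp5g3 and Cox8a did not differ beyond the spread of Atp5g3. At the low end among structural subunits that passed the filter, Sdhc stood at 27.7 ± 3.29 and Ndufs1 at 46.9 ± 7.06 CPM per kilobase (SD, n = 3), apart from Cox6b2 at 1.87 ± 0.518. These values lean on transcript models, since the isoforms used by these cells were not measured.

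A difference among the libraries that did not follow treatment was seen in many members. Both libraries numbered 1 lay above the other 3 for 40 of the 79 members (50.6%), against 9.05% of all genes tested. Control IgG replicate 1 was the highest library for 46 members (58.2%, against 19.4% of all genes). Anti-PD-L1 replicate 1 was the highest for another 20 (25.3%, against 19.1%). Ribosomal proteins shared the first trait: Control IgG replicate 1 was the highest for 73.4% of the cytosolic and 55.3% of the mitochondrial ones. In those lists, both libraries numbered 1 lay above the rest for 8.86% and 18.4%. The members' median log2 distance from the control mean was 0.19, -0.054 and -0.13 in Control IgG replicates 1, 2 and 3 and 0.075 and -0.11 in anti-PD-L1 replicates 1 and 2. For all genes tested these medians ran the other way, at -0.18, 0.10, 0.10, -0.15 and 0.10. The pattern was found in every complex and was least frequent in complex III (3 of 9). In complex V it held for all 7 stalk and membrane subunits and for none of the c ring genes. With both libraries numbered 1 left out, the members' median fold change was 0.022. Anti-PD-L1 replicate 2 then lay above both remaining controls for 33 members and below both for 29, which is 41.8% and 36.7% of members against 29.2% and 34.5% of all genes.

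**Figure D3:**
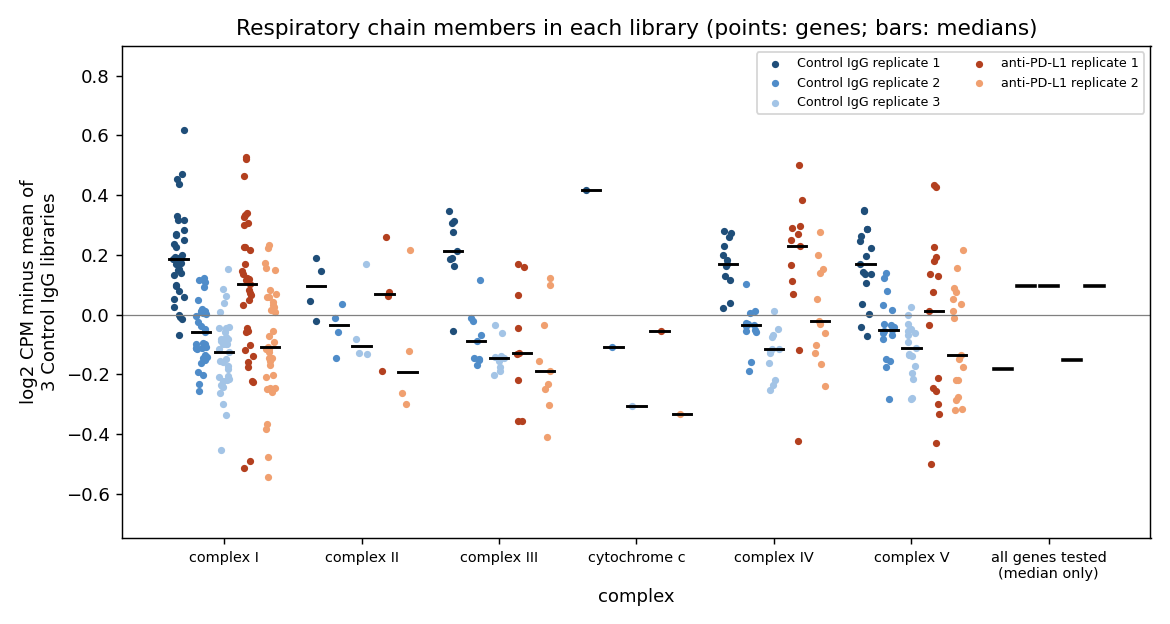
Log2 CPM (library totals) minus the mean of the 3 Control IgG libraries (vertical axis), by complex and library. Points are the tested members except Cox6b2. Bars are medians over the tested members of each complex, Cox6b2 included, and the bars at the right are medians over all 11299 genes tested. The medians of Control IgG replicate 1 are positive in each complex, while the median of all genes in that library is -0.18.

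Transcript length went along with both the library pattern and the fold change. Most members are short, with a median of 745 bases against 2657 for all tested genes with a length. Both libraries numbered 1 lay above the rest for 52.9% of the 34 members under 700 bases, 62.1% of the 29 members from 700 to below 1500 bases and for 4 of the 16 members of 1500 bases or more. For all genes of the same lengths the shares were 24.7%, 13.3% and 7.79%. In each length class the members' share was thus higher than that of genes of like length.

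The median log2 fold change of members was 0.13 under 700 bases (25 of 34 above 0), -0.030 from 700 to below 1500 bases (11 of 29) and -0.19 at 1500 bases or more (1 of 16, Sdhc). Over all genes these medians were 0.039, -0.041 and -0.0095. Spearman's rho between length and fold change was -0.47 over the 79 members and 0.055 over 10786 genes, as descriptions over genes that share the same 5 libraries. The complexes differ in length, and within the class under 700 bases their medians lay closer together: 0.11 for complex I (17 genes), 0.042 for complex III (4), 0.15 for complex IV (8) and 0.17 for complex V (5). Among members of 700 bases or more they were -0.055, -0.20, 0.023 and -0.13 in the same order (18, 5, 5 and 12 genes). Complex IV thus had the highest median among the longer members and complex V among the shorter. The part of length in the fold changes was not tested.

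**Figure D4:**
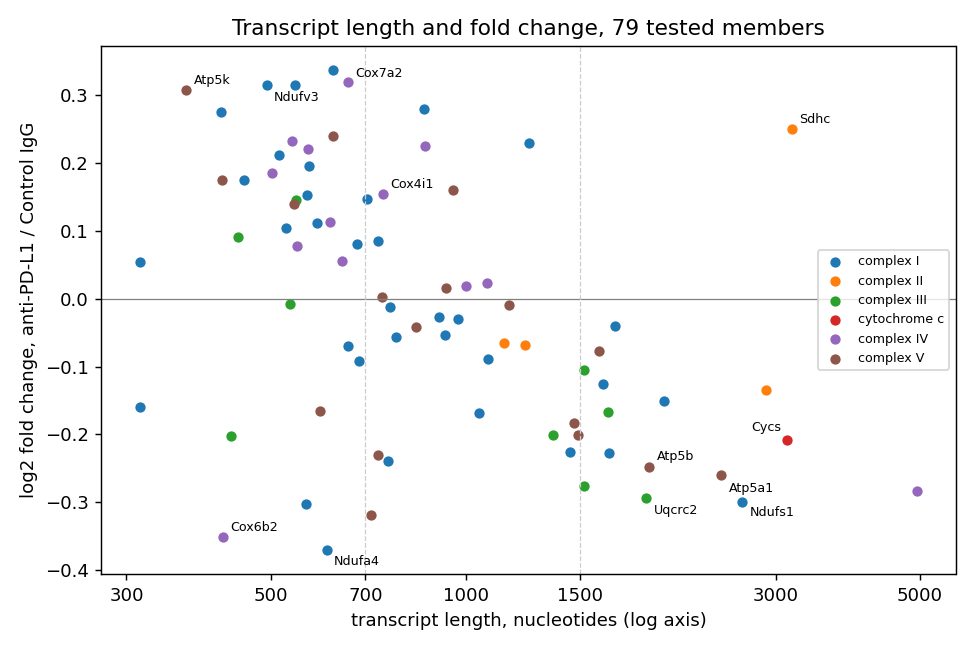
Transcript length in bases (horizontal log axis) and log2 fold change, anti-PD-L1 relative to Control IgG (vertical axis), for the 79 tested members coloured by complex; dashed lines mark 700 and 1500 bases. Members of 1500 bases or more lie below 0 apart from Sdhc, and 25 of 34 members under 700 bases lie above it.

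The 81 members together summed to 22061, 19054 and 18179 CPM in the controls and to 19684 and 17759 CPM after anti-PD-L1, with overlapping groups. Because this sum differed between libraries of the same group, the balance among complexes was also taken within each library, as the share of the members' summed CPM. Complex IV held 16.03%, 16.09% and 16.03% in the controls and 18.7% and 17.6% after anti-PD-L1. The controls lay close together (SD 0.0347 percentage points, n = 3) and the anti-PD-L1 libraries less so (SD 0.734, n = 2). The difference between group means was 2.11 percentage points. For the other complexes and cytochrome c the control SD was larger, from 0.156 to 0.426. Complex I held 24.0%, 23.7% and 23.5% against 24.9% and 24.4%, so that each anti-PD-L1 share again exceeded all controls. Complex V held 41.1%, 41.7% and 41.6% against 38.6% and 39.9%, and complex III 11.4%, 11.05% and 11.2% against 10.4% and 10.9%, with both anti-PD-L1 libraries below every control. Complex II (5.07%, 5.47% and 5.92% against 5.46% and 5.35%) and cytochrome c (2.47%, 1.99% and 1.82% against 2.00% and 1.83%) overlapped.

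Such shares sum to a whole, so they do not move independently, and a few abundant genes weigh on them. Without Atp5a1 and Atp5b, the complex V difference was -0.39 in place of -2.23 percentage points and the complex I difference 0.22 in place of 0.95. The transcripts of Atp5a1 and Atp5b, at 2471 and 1916 bases, fall in the longest length class. The complex III difference of -0.58 was -1.14 without those genes and -0.24 without both libraries numbered 1. The complex IV difference was 1.58 without both libraries numbered 1, 1.59 without anti-PD-L1 replicate 1 and 2.63 without anti-PD-L1 replicate 2. No test was made of these shares.

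**Figure D5:**
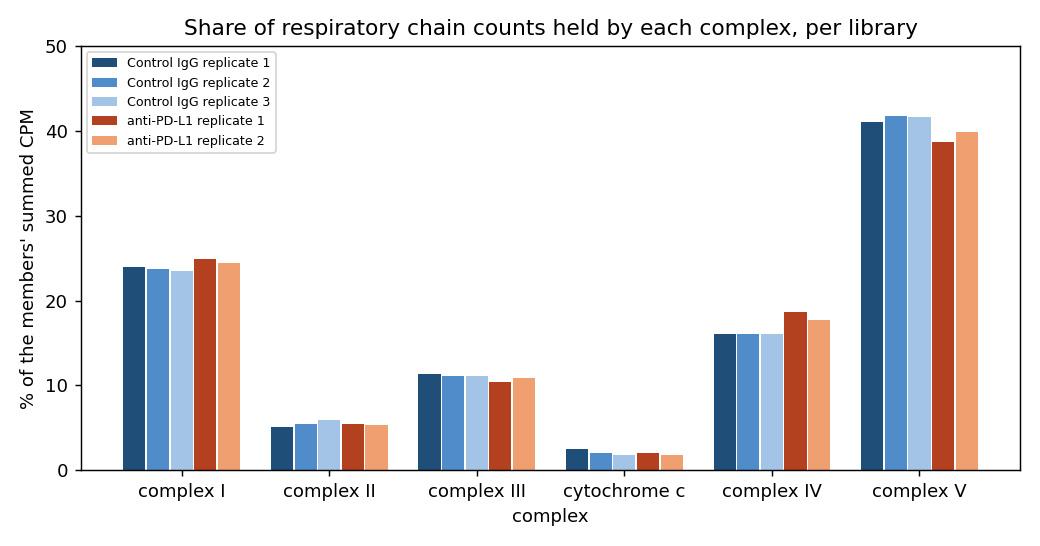
Share of the members' summed CPM (vertical axis, percent) held by each complex, with 1 bar per library, blue for Control IgG and red to orange for anti-PD-L1. Complex IV is at 16.03% to 16.09% in the controls and at 18.7% and 17.6% after anti-PD-L1, and complex V is lower in both anti-PD-L1 libraries.

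Other genes of oxidative metabolism were listed beside the chain, and 0 of them passed an adjusted p of 0.05 in edgeR. Among 47 tested assembly factors, 22 fold changes were above 0 and 25 below (median -0.039). Cox10, which makes heme for complex IV, gave 58.1, 52.4 and 51.5 CPM against 27.1 and 42.6 CPM (-0.63, SE 0.29, unadjusted p = 0.0634). Its partner in the heme pathway, Cox15, was placed in the opposite direction at 17.5, 20.7 and 34.2 CPM against 39.2 and 35.1 CPM (0.67, SE 0.34, unadjusted p = 0.0814). In both genes the groups did not overlap, but they were picked for the smallest p of the list. Of the 47, 12.8% lay above and 14.9% below every control, against 6.94% and 10.8% of all genes. On TMM-scaled CPM these shares were 6.38% and 19.15%, against 7.73% and 9.57%.

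Tricarboxylic acid cycle genes, which supply the electrons, had 12 of 14 fold changes below 0 (median -0.24). Fh1, fumarase, gave 251, 189 and 165 CPM against 123 and 128 CPM, with no overlap (-0.68, SE 0.31, unadjusted p = 0.0569 by edgeR). Suclg1, a subunit of succinyl-CoA ligase, had a fold change of -0.34 (SE 0.28). Both were picked for the smallest p of the list. Of the 14 genes, 4 lay below every control (28.6%, against 10.8% of all genes) and 0 above. On TMM-scaled CPM 2 lay below (14.3%, against 9.57%). Of 6 tested genes for other enzymes that feed ubiquinone, 3 were above 0 (median 0.090); Dhodh, of pyrimidine synthesis, had -0.70 (SE 0.38), and Sqrdl, of sulfide oxidation, 1.61 (SE 0.95) at 0.701 to 2.85 CPM. Ubiquinone synthesis had 5 of 13 above 0 (median -0.11), with Pdss2 at -0.84 (SE 0.47) and Adck3 at 0.59 (SE 0.33).

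Regulators of mitochondrial biogenesis had 6 of 16 fold changes above 0 (median -0.13). Peo1, the mitochondrial DNA helicase, gave 16.5, 11.4 and 18.1 CPM against 3.54 and 8.96 CPM, lower in both anti-PD-L1 libraries (-1.31, SE 0.50, unadjusted p = 0.0299, adjusted p = 0.9999 by edgeR). It was picked for the smallest p of the list, in which 2 of 16 genes lay below every control (12.5%, against 10.8% of all genes). Myc, a general driver of growth genes, gave 673, 503 and 556 CPM against 213 and 559 CPM, with anti-PD-L1 replicate 2 inside the control range (-0.60, SE 0.39). Carriers that serve ATP synthesis had 3 of 8 above 0 (median -0.16), with the ADP/ATP carrier Slc25a5 at -0.47 (SE 0.29) and the phosphate carrier Slc25a3 at -0.31 (SE 0.24).

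Mitochondrial ribosomal proteins, which translate the subunits encoded in the organelle, had 60 of 76 fold changes below 0 (median -0.19). Both anti-PD-L1 libraries lay below every control for 31 of the 76 (40.8%, against 10.8% of all genes), and for 18 (23.7%, against 9.57%) on TMM-scaled CPM. Without both libraries numbered 1, 56 (73.7%, against 34.5%) lay below both remaining controls. Mrps18b gave 85.4, 118 and 99.2 CPM against 50.5 and 73.9 CPM (-0.67, SE 0.25, unadjusted p = 0.0283), and Mrps5 71.7, 66.5 and 67.7 CPM against 32.3 and 55.0 CPM (-0.65, SE 0.29). Cytosolic ribosomal proteins, short and abundant transcripts like the members, had 67 of 79 below 0 (median -0.17), with Rpl14 at -0.43 (SE 0.28) and Rps4x at -0.36 (SE 0.24). Their median log2 distance from the control mean was -0.32 and -0.055 in the anti-PD-L1 libraries numbered 1 and 2. Without both libraries numbered 1, 40 of the 79 (50.6%, against 29.2% of all genes) lay above both remaining controls. Below both lay 20 (25.3%, against 34.5%), so the direction turned. The members' own median of -0.013 was close to the -0.015 over all genes tested and lay above the medians of both ribosomal lists. The differences between the lists were not tested.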

How the data were processed

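RNA sequencing measured poly(A) RNA of 5000 to 30000 sorted CD8+ T cells per library, which was amplified (Smart-seq2 with changes, 8 cycles) and tagmented (12 cycles), per the labels' protocols. Neither strand nor molecule is marked, and floors from counts therefore cover counting error alone. The files hold whole-number counts per gene deposited by the authors, not normalized. TopHat, HTSeq and mm10 are named in the submitters' processing notes; for the strand setting and for reads with more than 1 place in the genome the sources used here give nothing. That bears on members with pseudogene copies, whose counts are uncertain. Counter lines without a gene (7.46% to 15.2% of counts without a feature, 1.38% to 1.51% ambiguous) were left out.

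Genes were tested with edgeR 4.0.16 (R 4.3.3, quasi-likelihood F-test, two-sided, TMM, minimum count 10 and total 15). Adjustment was by Benjamini-Hochberg over 11299 genes, at a threshold of 0.05. Checked on simulated counts, the test called 19.4% of 2-fold, 82.1% of 4-fold and 92.4% of 8-fold changes. Alternatives used DESeq2 1.42.0, limma-voom (limma 3.58.1), other scalings, no filter, a replicate block and fewer libraries. CPM use library totals unless TMM is named; log2 CPM used a prior count of 2. Coordinates are from GENCODE vM21 and promoters from RefSeq. The members, gene lists, tests and rules were chosen with earlier results of these data known. Named were a list of catalytic subunits and paralogs, the 2 smallest p and the highest level per complex, and the 2 smallest p per other list (1 gene that this names is not reported here); Ndufb7, Ndufa9, Ndufc1, Uqcrh, Uqcr11, Cox8a, Atp5e, Atp5h, Atp5k and genes named by overlap or promoter were chosen after their values were seen.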

Additional observations from a re-analysis of the deposited data

How the results depend on the processing

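The count of members past the adjusted threshold was 0 under each of the 12 other settings run in edgeR, DESeq2 and limma-voom. Over all genes the count of higher calls was 4 with DESeq2, 5 without the low-count filter and 1 without both libraries numbered 1, in place of 0; none was a member. Leaving out 1 library at a time, the median log2 fold change ran from -0.18 to 0.22 for all members, -0.18 to 0.29 for complex I, -0.26 to 0.20 for complex II, -0.30 to 0.10 for complex III with cytochrome c, -0.081 to 0.36 for complex IV and -0.21 to 0.14 for complex V. The shares of complexes III, IV and V differed by -0.84 to -0.32, 1.59 to 2.63 and -2.85 to -1.61 percentage points; without Atp5a1 and Atp5b the values were 0.22 for complex I, -1.14 for III and -0.39 for V, and without both libraries numbered 1 they were -0.24 for III and 1.58 for IV. Tested members above or below every control numbered 2 and 3 on TMM-scaled CPM (2.53% and 3.80%, against 7.73% and 9.57% of all genes). Without both libraries numbered 1 the counts were 33 and 29 (41.8% and 36.7%, against 29.2% and 34.5% of all genes).

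With the replicate number as a block, 0 members and 0 genes passed, the members' median was -0.12, 29 members in place of 37 lay above 0, and of the named members Cox5a (-0.11) and Cox7a2l (-0.10) changed sign. The numbers are not shown to pair the pools. Deviations of the libraries numbered 1 correlated at 0.328 and those numbered 2 at 0.370, over 2 pairs only. The deviations of the 2 anti-PD-L1 libraries mirror each other by construction, so each control has the opposite value with the other library. Control IgG replicate 3 stood at -0.156 and 0.156 with anti-PD-L1 replicates 1 and 2. These values therefore cannot show a pairing. Cox5a was also -0.11 without both libraries numbered 1. Over single left-out libraries, 17 to 58 of the 79 members lay above 0, and among the named members fold changes crossed 0 for Sdhb (-0.36 to 0.21), Sdhd (-0.33 to 0.19), Uqcrc1 (-0.31 to 0.027), Cycs (-0.45 to 0.14), Cox4i1 (-0.13 to 0.42), Cox5a (-0.32 to 0.39), Atp5g1 (-0.27 to 0.035), Cox7a2 (-0.022 to 0.63) and Cox7a2l (-0.11 to 0.17). The causes of these shifts were not tested. Where an arm was left with 1 library, that library was assumed to vary like the controls.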

Other observations

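Some genes of the chain have symbols outside the name pattern. Ndufab1, the acyl carrier protein bound to complex I, gave 129, 105 and 94.6 CPM in the controls and 84.1 and 96.3 CPM after anti-PD-L1, with overlapping groups (log2 fold change -0.27, SE 0.28). Usmg5, today Atp5md, a small membrane subunit of complex V, gave 138, 84.5 and 80.4 CPM against 126 and 105 CPM (0.20, SE 0.35). The complex V subunit listed as 2010107E04Rik, today Atp5mpl, gave 185, 121 and 122 CPM against 156 and 134 CPM (0.028, SE 0.33). In Usmg5 and 2010107E04Rik both libraries numbered 1 were the highest. Atpif1, the inhibitor of the ATP synthase, was even in the controls at 99.3, 101 and 102 CPM and stood at 135 and 91.1 CPM after anti-PD-L1, so the anti-PD-L1 libraries lay on both sides of the controls (0.21, SE 0.28). None passed the test, with adjusted p-values of 0.9999 by edgeR.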
